A study of Mus musculus with 12 samples.

Results

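Cdkn1a and 4 other genes that encode inhibitors of cyclin-dependent kinases, Cdkn1b, Cdkn1c, Cdkn2c and Cdkn2d, were followed in mouse muscle together with Mdm2, Ccng1 and Gadd45a, 3 targets of p53 that serve as a check of p53 activity. The 8 genes were listed by symbol, and all 8 were among the 14270 genes of the deposited table. The set was chosen by its readout: Cdkn1a was selected on its difference between the genotypes in these same libraries, so its KO and WT values are a description without a test. The other 7 were listed for their family or pathway.

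The CDK inhibitors fall into a pair of families. The Cip/Kip proteins p21 (Cdkn1a), p27 (Cdkn1b) and p57 (Cdkn1c) bind complexes of cyclins with CDKs, whereas the INK4 proteins p18 (Cdkn2c) and p19 (Cdkn2d) bind CDK4 and CDK6 and keep D cyclins away from them. The p53 protein activates Cdkn1a after DNA damage, but in muscle Cdkn1a is also induced without p53 when myoblasts leave the cell cycle, and it is known to rise in denervated muscle. Muscle fibres themselves are postmitotic.

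RNA came from the tibialis anterior, a muscle of the lower leg. The KO mice lack Rev-erbs in skeletal muscle only, per the series title, and were set against wild-type (WT) mice. The Rev-erbs, encoded by Nr1d1 and Nr1d2, are nuclear receptors that repress transcription as part of the clock that keeps daily time. There were 12 libraries, 3 in each of 4 groups: KO at ZT10, WT at ZT10, KO at ZT22 and WT at ZT22. The titles give these times in hours of zeitgeber time, which starts at lights on, whereas the series' design text names ZT0 and ZT12. The labels name no Cre driver, allele, age or strain, and do not say whether replicates are separate animals, so p-values measure the spread between these libraries, which may be technical.

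Nr1d1, a targeted gene, had 419.99, 502.81 and 359.27 FPKM (fragments per kilobase of transcript per 1e6 fragments) in the libraries labelled KO at ZT10, against 37.03, 31.61 and 27.64 FPKM in WT at ZT10. At ZT22 it had 354.31, 369.15 and 327.72 FPKM in libraries labelled KO, against 52.67, 54 and 37.99 FPKM in WT. Nr1d1 was thus higher, not lower, under the label KO. Nr1d2, the other Rev-erb gene, had 36.5, 40.61 and 40.16 FPKM in KO against 37.47, 42.41 and 43.57 FPKM in WT at ZT10, which overlapped. At ZT22 Nr1d2 had 38.9, 37.64 and 36.31 FPKM in KO against 29.74, 28.4 and 29.18 FPKM in WT, and was also higher under the label KO (0.36 ± 0.08 on the log2(FPKM + 1) scale, SE; limma adjusted p = 0.0078). Values per gene cannot show the loss of single exons, and Nr1d1 overlaps Thra on the opposite strand over 1075 bp, so this check neither bears out nor refutes the label. KO below means the libraries labelled KO.

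The summed FPKM of 10 muscle fibre markers was 112398 to 119053 in KO and 90531 to 102238 in WT at ZT10, and 86894 to 91362 in KO and 70841 to 80692 in WT at ZT22, higher in KO at both times without overlap. Single markers did not all follow the sum. Over all genes, 5.36% were higher and 8.96% lower in KO at ZT10 at a limma adjusted p under 0.05. At ZT22 these shares were 7.13% and 11.2%. Of the 9 fibre markers tested, 4 were higher and 1 lower in KO at ZT10, and 2 higher and 1 lower at ZT22. Myh1, a fast myosin heavy chain gene picked out after its values were seen, was the lower one, with 1147.24, 1564.69 and 791.87 FPKM in KO against 2097.46, 2318.86 and 1865.61 FPKM in WT at ZT10. FPKM values are relative to a library's total, and the part of this shift in the results was not tested. Adipocyte markers summed to 19.49 to 36.6 FPKM in KO and 10.13 to 18.36 FPKM in WT at ZT10, but to 8.85 to 15.56 FPKM in KO and 17.43 to 29.05 FPKM in WT at ZT22, so the direction of the sum turned with time, without overlap at either. Of the 3 adipocyte markers tested, 0 passed with limma at either time, with 3 at an unadjusted p under 0.05 at ZT10 and 1 at ZT22. Adipoq and Retn overlapped between genotypes at ZT10. Endothelial markers summed to 86.99 to 98.08 FPKM in KO and 99.02 to 128.3 FPKM in WT at ZT22, also without overlap. All 6 satellite cell markers together reached 2.34 to 3.61 FPKM in KO and 3.4 to 3.85 FPKM in WT at ZT10, and 4.42 to 4.69 FPKM in KO and 3.63 to 4.93 FPKM in WT at ZT22. In whole muscle, fewer cells of a type and less RNA per cell cannot be told apart.

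The promoters of Cdkn1a and of the p53 targets are shown because the data set these genes against each other. Each window, from RefSeq (GRCm38.p6), runs 5′ to 3′ from 250 bases before the transcription start to 50 bases from it on. Capitals mark matches to a p53 half-site consensus, CAGCTG (an E-box that myogenic factors can bind) and GGGCGG (a GC box), which were searched on both strands with AGGTCA (a REV-ERB and ROR half-site), CACGTG (an E-box of the clock) and TATAAA.
Cdkn1a, start 1 (chr17:29090729-29091028, plus strand): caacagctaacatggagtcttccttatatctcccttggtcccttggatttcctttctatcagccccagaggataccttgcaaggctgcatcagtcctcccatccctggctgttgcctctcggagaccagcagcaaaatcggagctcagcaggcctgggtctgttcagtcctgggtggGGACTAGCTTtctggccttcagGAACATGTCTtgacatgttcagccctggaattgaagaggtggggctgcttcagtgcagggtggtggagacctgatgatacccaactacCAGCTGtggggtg
Cdkn1a, start 2 (chr17:29093519-29093818, plus strand): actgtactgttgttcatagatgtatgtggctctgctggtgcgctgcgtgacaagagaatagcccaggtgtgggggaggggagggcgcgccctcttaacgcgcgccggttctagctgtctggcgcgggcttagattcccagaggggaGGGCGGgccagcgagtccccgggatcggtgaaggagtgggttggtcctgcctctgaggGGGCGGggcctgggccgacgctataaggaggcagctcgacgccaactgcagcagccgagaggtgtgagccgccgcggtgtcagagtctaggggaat
Mdm2 (chr10:117710709-117711008, minus strand): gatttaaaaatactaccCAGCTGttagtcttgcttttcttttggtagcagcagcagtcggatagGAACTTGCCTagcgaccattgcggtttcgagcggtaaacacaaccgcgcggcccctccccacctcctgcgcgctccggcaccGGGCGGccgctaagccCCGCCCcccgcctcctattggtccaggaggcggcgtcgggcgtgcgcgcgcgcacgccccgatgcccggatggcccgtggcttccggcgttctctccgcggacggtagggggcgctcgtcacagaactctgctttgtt
Ccng1 (chr11:40755237-40755536, minus strand): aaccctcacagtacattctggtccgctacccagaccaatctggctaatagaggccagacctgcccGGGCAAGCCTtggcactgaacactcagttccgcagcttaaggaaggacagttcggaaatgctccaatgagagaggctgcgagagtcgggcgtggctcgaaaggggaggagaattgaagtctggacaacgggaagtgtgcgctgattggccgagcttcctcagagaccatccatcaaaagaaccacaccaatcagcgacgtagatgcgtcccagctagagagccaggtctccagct
Gadd45a (chr6:67037358-67037657, minus strand): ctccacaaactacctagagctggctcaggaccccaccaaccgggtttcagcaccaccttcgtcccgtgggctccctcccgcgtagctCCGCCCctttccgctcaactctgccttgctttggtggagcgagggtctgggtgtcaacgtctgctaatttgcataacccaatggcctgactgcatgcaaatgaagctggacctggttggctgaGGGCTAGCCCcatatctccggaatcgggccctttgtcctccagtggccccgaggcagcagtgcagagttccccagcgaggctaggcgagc

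Start 1 of Cdkn1a held 2 matches to the p53 half-site consensus, at -73 to -64 and -51 to -42 from the transcription start, and the myogenic E-box at 37 to 42. Start 2 held the GC box at -104 to -99 and -46 to -41. Mdm2, Ccng1 and Gadd45a each held 1 match to the p53 half-site consensus, and Mdm2 also held the myogenic E-box. Of all 32851 promoter windows of 300 bases, 8.36% held a p53 half-site match, 16.3% the myogenic E-box and 35.7% the GC box. The REV-ERB and ROR half-site (16.3% of all windows), the clock E-box (7.15%) and the TATA letters (13.6%) were in neither window of Cdkn1a, nor in those of Mdm2, Ccng1 and Gadd45a. Among the windows not printed, start 2 of Cdkn2c held the REV-ERB and ROR half-site and the clock E-box, and its start 1 held 4 GC boxes. Cdkn1b held 1 GC box, and Cdkn2d held 5 GC boxes and a p53 half-site match that shares 2 bases with one of them. Windows were found for 7 of the 8 genes, all except Cdkn1c. A match is a description of the letters and not a bound site.

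Cdkn1a, which encodes p21 (chr17:29090976-29100727, plus strand, GRCm38), was high in every KO library and low in every WT library at both times. It had 270.52, 270.86 and 840.72 FPKM in KO at ZT10, against 4.27, 6.39 and 4.7 FPKM in WT at ZT10. It had 408.5, 416.01 and 508.97 FPKM in KO at ZT22, against 7.15, 13.37 and 6.5 FPKM in WT at ZT22. The lowest KO library was 42.33 times the highest WT library at ZT10, and 30.55 times at ZT22.

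The mean of Cdkn1a was 460.7 ± 329.1 FPKM in KO and 5.12 ± 1.12 FPKM in WT at ZT10 (SD, n = 3 each), a ratio of 90.0. At ZT22 it was 444.5 ± 56.0 FPKM in KO and 9.01 ± 3.79 FPKM in WT (SD, n = 3 each), a ratio of 49.4. Replicate 3 of KO at ZT10 stood far above its group, and without it the difference on the log2(FPKM + 1) scale was 5.49 in place of 6.03. At ZT22 this difference was 5.53. The authors' deposited table gives log2 fold changes of 6.53 at ZT10 and 5.63 at ZT22, KO over WT. A gene of type TEC, AC167363.2, overlaps Cdkn1a on the opposite strand over 273 bases of exon. Use of strand in counting is not stated in any label or header, so reads of the 2 cannot be told apart.

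**Figure D1:**
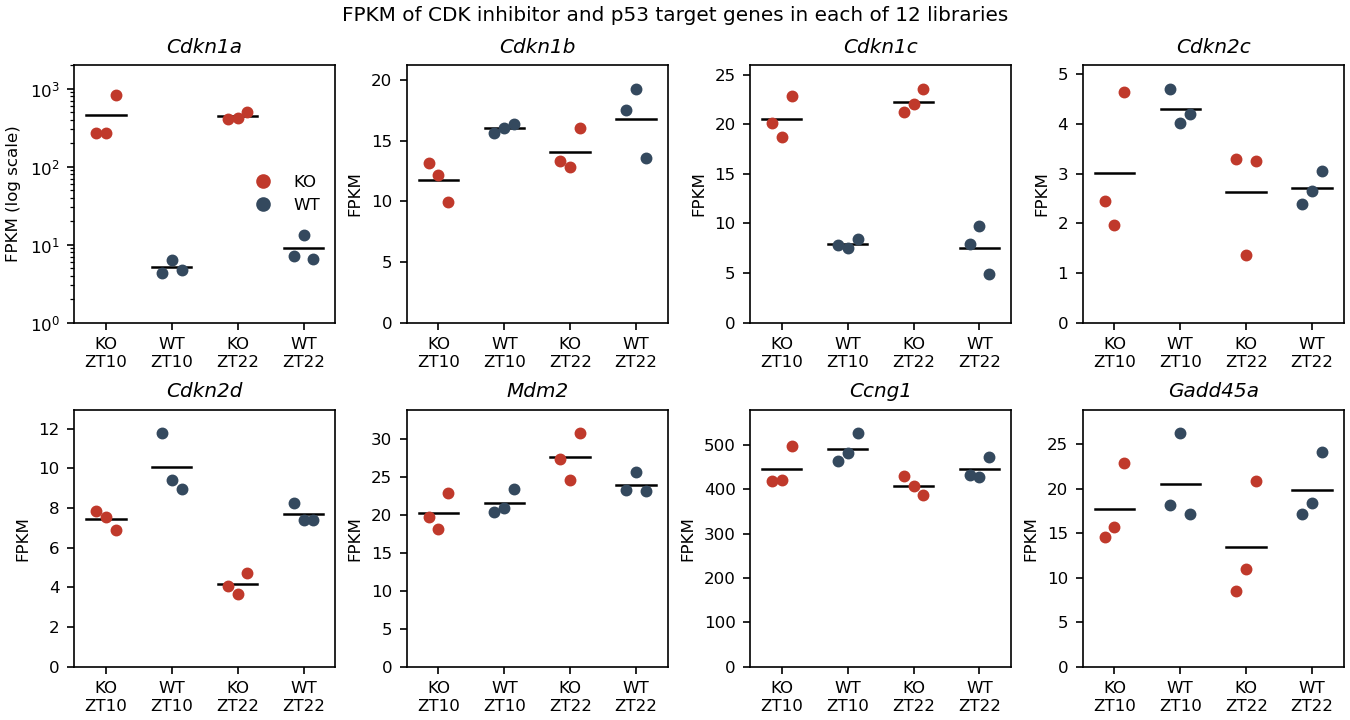
FPKM of the 8 genes in each of the 12 libraries, with a point per library in order of replicate number and a bar at the group mean (n = 3); the axis of Cdkn1a is logarithmic and the others start at 0. Cdkn1a and Cdkn1c were higher and Cdkn2d lower in every KO library than in any WT library of the same time, while Mdm2, Ccng1 and Gadd45a overlapped between genotypes.

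Cdkn1a made up most of the inhibitor transcripts in KO muscle and few in WT muscle. Of the summed FPKM of the 5 inhibitors, its share was 86.1, 87 and 95% in KO against 9.67, 14.7 and 11% in WT at ZT10. At ZT22 its share was 90.7, 91.2 and 91.4% in KO against 16.5, 25.5 and 18.3% in WT. The sum over the 5 inhibitors was 314.1, 311.3 and 885 FPKM in KO against 44.16, 43.45 and 42.59 FPKM in WT at ZT10.

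Among the 8 genes, the order of levels in WT at ZT10 placed Ccng1 first at 490.3 FPKM, then Mdm2 (21.5), Gadd45a (20.6), Cdkn1b (16.0), Cdkn2d (10.1), Cdkn1c (7.91), Cdkn1a (5.12) and Cdkn2c (4.31). The libraries of Mdm2 and Gadd45a overlapped, as did those of Cdkn1a and Cdkn2c. In KO at ZT10, Cdkn1a stood beside Ccng1, which averaged 445.9 ± 44.9 FPKM (SD, n = 3), and their libraries overlapped. The next gene down in KO at ZT10 was Cdkn1c at 20.5 FPKM, whose libraries overlapped those of Mdm2.

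Cdkn1c, which encodes p57 and is expressed from the maternal allele as an imprinted gene, was the other inhibitor that was higher in KO muscle. It had 20.09, 18.67 and 22.85 FPKM in KO against 7.77, 7.56 and 8.39 FPKM in WT at ZT10. It had 21.21, 22 and 23.58 FPKM in KO against 7.89, 9.77 and 4.93 FPKM in WT at ZT22. No KO library came down to the level of any WT library. The log2(FPKM + 1) difference was 1.27 ± 0.17 at ZT10 (SE; limma adjusted p = 0.000358) and 1.49 ± 0.17 at ZT22 (SE; limma adjusted p = 0.000104), and both calls held in every setting tried. Gm44732, an antisense gene, shares 625 bases of exon with Cdkn1c on the opposite strand.

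Cdkn2d, an INK4 inhibitor of CDK4 and CDK6, went the other way and was lower in KO muscle. It had 4.07, 3.68 and 4.75 FPKM in KO against 8.27, 7.4 and 7.41 FPKM in WT at ZT22. At ZT10 it had 7.83, 7.56 and 6.9 FPKM in KO against 11.79, 9.4 and 8.95 FPKM in WT. The groups did not overlap at either time. The difference was -0.75 ± 0.11 at ZT22 (SE; limma adjusted p = 0.000837). At ZT10 it was -0.38 ± 0.11 (SE; limma adjusted p = 0.0389), a call that was lost under 3 other settings and without any 1 of 4 libraries: WT replicate 1 (adjusted p 0.118), WT replicate 2 (0.0682), KO replicate 2 (0.0746) or KO replicate 3 (0.102).

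Cdkn1b, which encodes p27 and restrains the cell cycle in quiescent cells, did not pass the threshold at either time. It had 13.2, 12.19 and 9.93 FPKM in KO against 15.62, 16.08 and 16.35 FPKM in WT at ZT10, with no overlap. The difference at ZT10 was -0.42 ± 0.13 (SE; limma adjusted p = 0.0513; 95% interval -0.71 to -0.14), and without KO replicate 1 it passed (adjusted p 0.0358). Its ZT22 values were 13.31, 12.86 and 16.03 FPKM in KO against 17.51, 19.3 and 13.57 FPKM in WT. Those groups overlapped, with a difference of -0.23 ± 0.13 (SE; limma adjusted p = 0.246).

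Cdkn2c, the other INK4 gene, was low throughout and did not pass. It had 2.44, 1.97 and 4.64 FPKM in KO against 4.71, 4.02 and 4.2 FPKM in WT at ZT10. At ZT22 it had 3.29, 1.36 and 3.25 FPKM in KO against 2.39, 2.65 and 3.06 FPKM in WT. The groups overlapped at both times. The difference at ZT10 was -0.46 ± 0.24 (SE; limma adjusted p = 0.242), but -0.73 (adjusted p 0.0467) without KO replicate 3. At ZT22 it was -0.07 (95% interval -0.61 to 0.46). The related Cdkn2b stayed under the filter of a mean of 1 FPKM and was not tested: it averaged 0.457 FPKM in KO and 1.05 FPKM in WT at ZT10, and 0.477 FPKM in KO and 1.18 FPKM in WT at ZT22.

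The p53 targets listed as a check did not pass the threshold between genotypes at either time. Mdm2, the ubiquitin ligase that p53 induces and that degrades p53, had 19.73, 18.1 and 22.88 FPKM in KO against 20.38, 20.86 and 23.36 FPKM in WT at ZT10. Later, at ZT22, it had 27.33, 24.57 and 30.74 FPKM in KO against 23.17, 25.55 and 23.11 FPKM in WT. The groups overlapped at both times. The differences were -0.09 at ZT10 (95% interval -0.32 to 0.14; limma adjusted p = 0.624) and 0.19 at ZT22 (95% interval -0.04 to 0.42; limma adjusted p = 0.229).

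Ccng1, which encodes cyclin G1, had 418.96, 421.05 and 497.69 FPKM in KO against 462.53, 481.55 and 526.78 FPKM in WT at ZT10. Its ZT22 values were 428.95, 406.95 and 386.76 FPKM in KO against 432.97, 428.03 and 473.48 FPKM in WT. The KO libraries lay within or under the WT range, with overlap at both times. Its differences were -0.14 (95% interval -0.33 to 0.05; limma adjusted p = 0.323) at ZT10 and -0.13 (95% interval -0.32 to 0.06; limma adjusted p = 0.348) at ZT22.

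Gadd45a, a stress-response gene that p53 can induce, varied more between replicates. It had 14.57, 15.76 and 22.89 FPKM in KO against 18.24, 26.3 and 17.21 FPKM in WT at ZT10. At ZT22 it had 8.51, 11.02 and 20.94 FPKM in KO against 17.18, 18.36 and 24.17 FPKM in WT. The groups overlapped at both times. The differences were -0.21 (95% interval -0.80 to 0.39; limma adjusted p = 0.669) at ZT10 and -0.61 (95% interval -1.20 to -0.01; limma adjusted p = 0.146) at ZT22, where leaving out KO replicate 3 gave -0.95 (adjusted p 0.0179). E230016M11Rik shares 337 bases of exon with Gadd45a on the opposite strand.

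**Figure D2:**
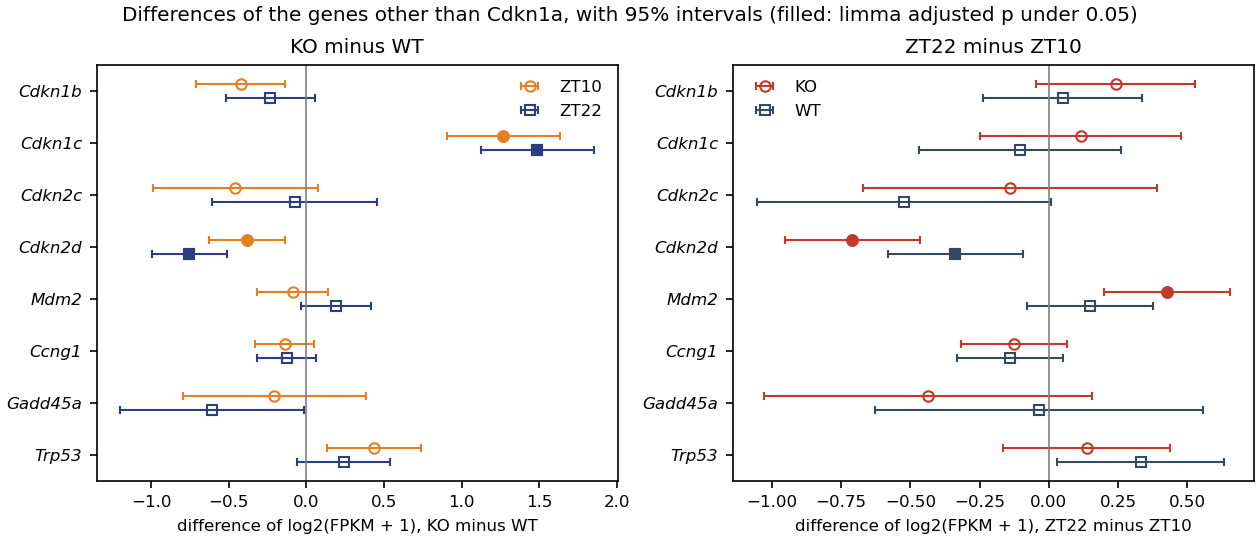
Differences of log2(FPKM + 1) for the 7 genes other than Cdkn1a and for Trp53, KO minus WT at each time (left) and ZT22 minus ZT10 in each genotype (right), with 95% limma intervals and n = 3 libraries a group; filled points passed a limma adjusted p of 0.05. Between genotypes, Cdkn1c passed upward and Cdkn2d downward at both times.

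Of the 7 genes tested between genotypes, 2 passed at ZT10, 1 higher and 1 lower, where 14.3% of all 9953 genes tested passed (5.36% higher and 8.96% lower). At ZT22 the same 2 of 7 passed, beside 18.3% of all genes (7.13% higher and 11.2% lower). Of the same 7, 3 had groups that did not overlap at ZT10 (Cdkn1b, Cdkn1c and Cdkn2d), against 30.2% of all genes. At ZT22 there were 2 of 7 (Cdkn1c and Cdkn2d), against 41.5% of all genes. Cdkn1a is left out of these counts because it was chosen on this difference. Rescaling the libraries by median of ratios changed the split over all genes from 533 higher and 892 lower to 740 and 643 at ZT10. At ZT22 it changed from 710 and 1116 to 967 and 818.

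The difference between genotypes did not pass a test of change with time for any of the 8 genes (0 of 8 with limma, 1 at an unadjusted p under 0.05), where 0.0402% of all genes passed. For Cdkn1a the change in the difference, ZT22 minus ZT10, was -0.50 ± 0.52 (SE; limma adjusted p = 0.672), and without replicate 3 of KO at ZT10 it was 0.04. The gene with the unadjusted p under 0.05 was Cdkn2d, at -0.37 ± 0.16 (SE; limma adjusted p = 0.264).

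Between the times of day, Cdkn2d fell in both genotypes and Mdm2 rose in KO. Of the 8 genes, 2 passed in KO, where 42.6% of all genes passed (28.9% higher and 13.7% lower at ZT22). In WT 1 of 8 passed, where 24.2% of all genes passed (18.4% higher and 5.77% lower). Cdkn2d at ZT22 minus ZT10 was -0.71 ± 0.11 in KO (SE; limma adjusted p = 0.00042). In WT it was -0.34 ± 0.11 (SE; limma adjusted p = 0.0455), a call lost in 8 of the 12 other settings, among them leaving out WT ZT10 replicate 1 or 2 or any WT ZT22 library. Mdm2 at ZT22 was 0.43 ± 0.10 higher than at ZT10 in KO (SE; limma adjusted p = 0.0061), and in WT the difference was 0.15 (95% interval -0.08 to 0.37).

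Cdkn1a had no difference past the threshold with time. In KO it was 0.16 ± 0.37 at ZT22 minus ZT10 (SE; limma adjusted p = 0.75). This rested on replicate 3 of KO at ZT10: without it the difference was 0.71 and passed (adjusted p 0.0284). In WT the ZT22 libraries all lay above the ZT10 libraries, at a difference of 0.66 ± 0.37 (SE; limma adjusted p = 0.215). The median of all genes was 0.11 at ZT22 minus ZT10 in KO and 0.09 in WT, and median-of-ratios scaling put these medians at -0.02 and -0.04. The split of calls over all genes then changed from 2872 higher and 1367 lower to 1883 and 2300 in KO, and from 1830 and 574 to 1039 and 1376 in WT. Under that scaling Ccng1 fell with time in both genotypes, by 0.28 in KO (adjusted p 0.0333) and by 0.29 in WT (adjusted p 0.0441).

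Trp53, which encodes p53 itself, had 11.24, 10.85 and 8.68 FPKM in KO against 8.64, 6.36 and 7 FPKM in WT at ZT10. The 3 KO libraries were above the 3 WT libraries, by little for the closest pair. The difference was 0.44 ± 0.14 (SE; limma adjusted p = 0.0547), and it passed without WT replicate 1 (adjusted p 0.0303), without KO replicate 3 (adjusted p 0.026) and with median-of-ratios scaling (adjusted p 0.0422). At ZT22 the difference was 0.24 (limma adjusted p = 0.252). Of the 7 genes tested among p53 and its regulators, Trp63, which encodes the related p63, was higher in KO at both times and was the only call. This 1 of 7 stood beside 14.3% of all genes called at ZT10 and 18.3% at ZT22. The median difference of the 7 was -0.04 at ZT10 and 0.14 at ZT22, beside -0.05 and -0.04 over all genes. Trp63 had 7.93, 7.51 and 10.39 FPKM in KO against 5.12, 3.93 and 3.67 FPKM in WT at ZT10, a difference of 0.87 ± 0.15 (SE; limma adjusted p = 0.00194), and 1.06 ± 0.15 at ZT22 (SE; limma adjusted p = 0.000544).

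Other p53 targets showed no common direction. Of 23 tested, 0 were higher and 2 lower in KO at ZT10 (limma; 5 at an unadjusted p under 0.05). At ZT22, 1 was higher and 2 lower (limma; 7 at an unadjusted p under 0.05). Over all genes, 14.3% passed at ZT10 and 18.3% at ZT22. The median difference of the 23 was 0.08 at both times, beside -0.05 at ZT10 and -0.04 at ZT22 over all genes. Bbc3 and Plk3, under the filter and named after their values were seen, went opposite ways at ZT10 without overlap. Bbc3 had 0.83, 0.65 and 1.5 FPKM in KO against 0.37, 0.31 and 0.21 FPKM in WT. Plk3 had 0.19, 0.52 and 0.36 FPKM in KO against 1, 1.16 and 0.64 FPKM in WT. Both overlapped at ZT22. Tigar, a fructose bisphosphatase gene that p53 induces, was lower in KO at both times. It had 25.88, 24.7 and 18.16 FPKM in KO against 47.87, 48.85 and 53.26 FPKM in WT at ZT10, without overlap. Its difference was -1.11 ± 0.12 at ZT10 (SE; limma adjusted p = 6.27e-05) and -0.45 ± 0.12 at ZT22 (SE; limma adjusted p = 0.0185). Ercc5, a nuclease gene of excision repair, was lower at ZT10 at -0.47 ± 0.09 (SE; limma adjusted p = 0.00435). At ZT22, Fas, a death receptor gene, was lower at -0.54 ± 0.13 (SE; limma adjusted p = 0.0147), and Zmat3, which encodes a zinc finger protein, was higher at 0.34 ± 0.11 (SE; limma adjusted p = 0.0474). The Zmat3 call was lost without any 1 of the 6 ZT22 libraries (adjusted p 0.0664 to 0.152), with a pseudocount of 0.1 FPKM (0.0841) and with no filter (0.0544). At ZT22 the Tigar call was lost with median-of-ratios scaling (0.0601) and without WT replicate 3 (0.063), KO replicate 2 (0.0527) or KO replicate 3 (0.0604), and that of Fas without WT replicate 2 (0.0677) or KO replicate 2 (0.0624). The count at ZT10 was 4 without KO replicate 1 or 3, and that at ZT22 ranged from 0 without KO replicate 2, and 1 without WT replicate 2, to 6 with only the groups compared.

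Of the 4 listed other CDK inhibitors and Gadd45 genes, 2 were tested. Gadd45b, a stress gene related to Gadd45a, was lower in KO at -1.10 ± 0.32 at ZT10 (SE; limma adjusted p = 0.04) and -1.08 ± 0.32 at ZT22 (SE; limma adjusted p = 0.0375), calls that most alternatives ended: leaving out any library but KO replicate 1 at ZT10 or any but KO replicate 3 at ZT22, and 4 of the 6 other settings at each time, among them no filter, robust empirical Bayes and median-of-ratios scaling. Gadd45g, the third of that family, had 56.88, 110.18 and 75.36 FPKM in KO against 33.26, 74 and 73.03 FPKM in WT at ZT10 and did not pass.

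The genes through which the inhibitors act include the cyclins, the CDKs and the Rb and E2F families. Among 16 G1 cyclins, CDKs and members of the Rb and E2F families tested, 0 were higher and 1 lower at ZT10, and 1 was higher and 1 lower at ZT22, beside 14.3% of all genes called at ZT10 and 18.3% at ZT22. With no filter on low values, 3 passed at ZT10. The median difference was 0.05 at ZT10 and 0.00 at ZT22. Ccnd3, the D cyclin of differentiating muscle, was the gene lower at both times. It had 6.5, 6.29 and 4.79 FPKM in KO against 10.94, 9.62 and 11.56 FPKM in WT at ZT10, without overlap. Its difference was -0.78 ± 0.14 at ZT10 (SE; limma adjusted p = 0.00311) and -0.78 ± 0.14 at ZT22 (SE; limma adjusted p = 0.00272). Rbl2, which encodes the Rb relative p130, was higher at ZT22 at 0.42 ± 0.13 (SE; limma adjusted p = 0.0442), a call that fell below the threshold without any ZT22 library except KO replicate 2. Rb1 had a difference of -0.05 at ZT10, and Pcna, the replication clamp that p21 binds, one of 0.06, and neither passed. Ccne1, the cyclin E1 gene, was under the filter and is named after its values were seen: it had 0.66, 0.51 and 0.59 FPKM in KO against 0.09, 0.12 and 0.13 FPKM in WT at ZT10, and 0.42, 0.34 and 0.68 FPKM in KO against 0.22, 0.08 and 0.05 FPKM in WT at ZT22. Its groups did not overlap at either time.

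Genes of S phase to mitosis were scarce in all groups. Of the 25 listed, 9 reached the filter and were tested. The proliferation marker Mki67 had 0.02 to 0.11 FPKM over the 12 libraries, and Top2a had 0 to 0.22 FPKM. At ZT10, 2 of the 9 were higher in KO and 1 lower: Rrm1, a ribonucleotide reductase subunit gene, at 0.53 ± 0.15 (SE; limma adjusted p = 0.0319), Mcm7, of the replicative helicase, at 0.68 ± 0.20 (SE; limma adjusted p = 0.0412), and Aurka, a mitotic kinase gene, at -0.84 ± 0.26 (SE; limma adjusted p = 0.0478). Over all genes, 5.36% were called higher and 8.96% lower at ZT10. This count of 3 fell to 0 without WT replicate 1 and to 1 without WT replicate 2 or 3 or KO replicate 2 or 3. At ZT22 0 of 9 passed with limma, where 18.3% of all genes passed. At that time 1 of the 9 had an unadjusted p under 0.05, and 1 passed without WT replicate 3.

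Of 11 senescence-linked genes tested, 0 passed at ZT10 with limma, 2 at an unadjusted p under 0.05, beside 14.3% of all genes that passed. At ZT22 1 passed, beside 18.3% of all genes: Lmnb1, the lamin B1 gene, known to fall in senescent cells, was lower in KO at -0.45 ± 0.13 (SE; limma adjusted p = 0.033). It had 1.36, 0.88 and 1.28 FPKM in KO against 2.35, 1.76 and 1.78 FPKM in WT at ZT22. The call was lost without WT replicate 1 or 2 or KO replicate 2 or 3. Il6, Cxcl1, Ccl2 and 4 others of the list were under the filter.

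**Figure D3:**
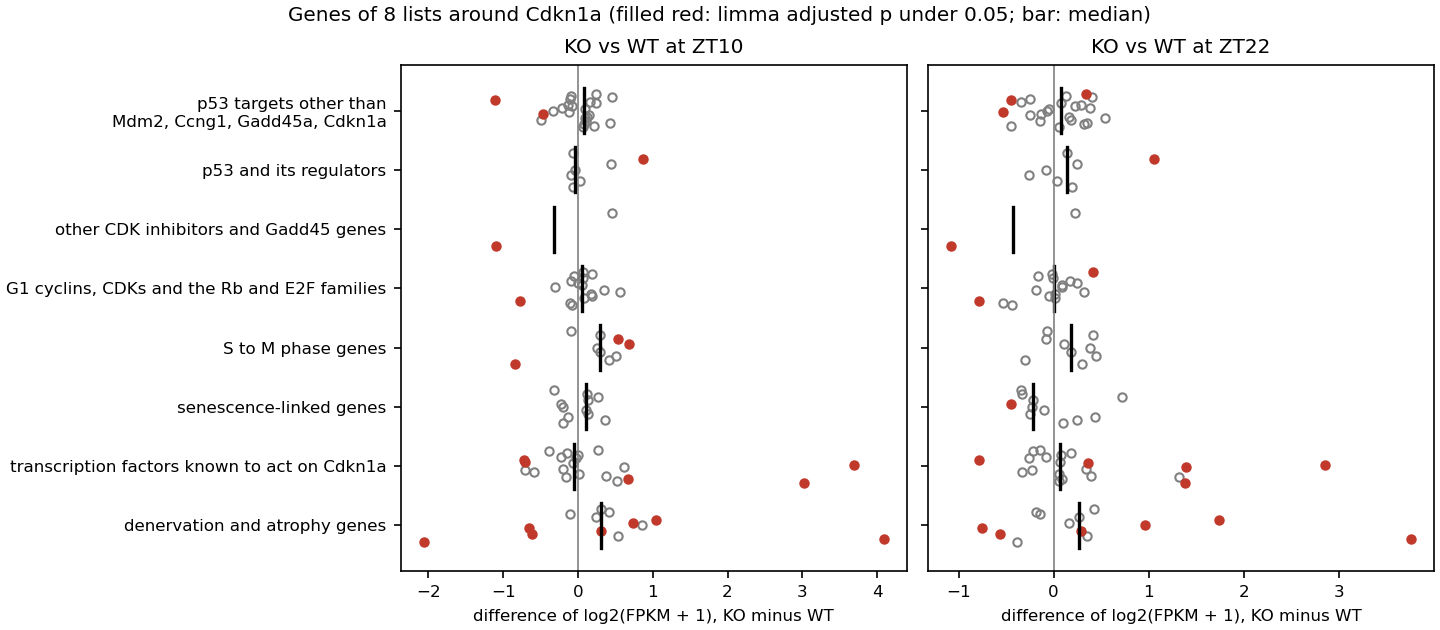
Differences of log2(FPKM + 1), KO minus WT at ZT10 (left) and ZT22 (right), of the tested genes in 8 lists, 1 point a gene, with a bar at the median of a list; filled red points passed a limma adjusted p of 0.05. The medians of the 23 p53 targets lay at 0.08, while single genes of the transcription factor and denervation lists reached differences of 3 to 4.

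Among 20 transcription factors known to act on Cdkn1a, 3 were higher and 2 lower in KO at ZT10, and 4 were higher and 1 lower at ZT22, beside 14.3% of all genes called at ZT10 and 18.3% at ZT22. The higher genes include the targeted Nr1d1 at both times and Nr1d2 at ZT22, for which values per gene do not check the label KO. The median difference was -0.05 at ZT10 and 0.07 at ZT22. Arntl, which encodes the clock activator BMAL1, averaged 37.2 ± 4.5 FPKM in KO and 3.68 ± 0.39 FPKM in WT at ZT10, and 46.7 ± 2.5 FPKM in KO and 17.4 ± 2.0 FPKM in WT at ZT22 (SD, n = 3 each). Myod1, a myogenic factor that induces Cdkn1a in cultured myoblasts, had 71.47, 60.27 and 80.68 FPKM in KO against 22.77, 30.95 and 25.51 FPKM in WT at ZT22. Its groups did not overlap there, at 1.39 ± 0.20 (SE; limma adjusted p = 0.000633), and at ZT10 the difference of 0.62 had a limma adjusted p of 0.057. Rora, a nuclear receptor that shares DNA sites with the REV-ERBs, was lower at ZT10 at -0.71 ± 0.11 (SE; limma adjusted p = 0.00132). At ZT22 its difference was 0.06.

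Among 13 denervation and atrophy genes, 4 were higher and 3 lower in KO at ZT10, and 4 were higher and 2 lower at ZT22, where 14.3% of all genes were called at ZT10 and 18.3% at ZT22. The median difference was 0.31 at ZT10 and 0.27 at ZT22. Chrna1, the alpha subunit gene of the muscle acetylcholine receptor, had 49.11, 49.02 and 81.05 FPKM in KO against 2.85, 1.92 and 2.73 FPKM in WT at ZT10, a difference of 4.09 ± 0.19 (SE; limma adjusted p = 5.14e-08). Musk, the receptor kinase gene of the neuromuscular junction, was higher at 1.05 ± 0.19 at ZT10 (SE; limma adjusted p = 0.0036) and 1.73 ± 0.19 at ZT22 (SE; limma adjusted p = 0.000104). Hdac4, a deacetylase gene known to respond to denervation, was higher at ZT10 at 0.74 ± 0.17 (SE; limma adjusted p = 0.0117). This call was lost without WT replicate 3 (0.0571), and at ZT22 the difference was 0.16 (limma adjusted p = 0.56). Other listed genes are named after their values were seen. Fbxo32 and Fbxo30 were higher in KO without overlap at both times, while Myog and Ncam1 overlapped at both. Dach2 was lower in KO without overlap at both times. Ankrd1 had 4.44, 1.31 and 5.48 FPKM in KO against 10.25, 41.16 and 11.41 FPKM in WT at ZT10, lower without overlap, and overlapped at ZT22. Chrnd, under the filter, overlapped at ZT10. At ZT22 it had 0.57, 0.55 and 0.52 FPKM in KO against 0.92, 1.38 and 1.09 FPKM in WT, lower without overlap. Fbxo31, which encodes an F-box protein, was lower at -0.65 ± 0.11 at ZT10 (SE; limma adjusted p = 0.00166) and -0.75 ± 0.11 at ZT22 (SE; limma adjusted p = 0.000632). The ZT10 count of 7 was 3 without WT replicate 3 and 4 without KO replicate 2, and the ZT22 count of 6 was 3 without any single ZT22 library except KO replicate 1. The 5 Schwann cell markers summed to 16.12 to 18.21 FPKM in KO and 8.96 to 12.85 FPKM in WT at ZT10, without overlap, and to 16.42 to 18.67 FPKM in KO and 9.87 to 17.79 FPKM in WT at ZT22, and their part in these counts was not tested.

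Likeness to Cdkn1a was measured in 2 ways. Of 9847 genes, Chrna1 had the smallest root mean square difference from it over the 12 libraries, with each gene centred on its own mean of log2(FPKM + 1), at 0.992 where the median gene had 2.96. Mapk8ip1, the gene of a JNK scaffold protein, followed at 1.19, and then came Nr1d1 at 1.37, Gstm7, a glutathione S-transferase gene, at 1.41 and Mybph, which encodes myosin-binding protein H, at 1.59. Mapk8ip1 had 26.27, 20.46 and 39.79 FPKM in KO against 0.95, 0.93 and 0.95 FPKM in WT at ZT10. These genes share with Cdkn1a the difference between genotypes that this measure mostly reads.

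Over the 6 KO libraries alone, the genes with the highest Pearson r with Cdkn1a were Pgpep1 (0.995), Nif3l1 (0.991), Uck2 (0.988), Creg1 (0.988) and Tm9sf4 (0.986), where the median gene had 0.11 and 175 genes were over 0.9. These 6 libraries share their genotype and differ in time, and the values are a description of them. Replicate 3 of KO at ZT10 was the highest library for all 5 genes as for Cdkn1a: Creg1, which encodes a secreted glycoprotein, had 47.84, 48.21 and 73.29 FPKM in KO at ZT10 and 58.83, 59.4 and 62.32 FPKM in KO at ZT22. Without the 2 libraries farthest from the median of Cdkn1a, KO ZT10 replicates 3 and 1, r over the 4 left was 0.975 to 0.994 for the 5 genes, and Spearman's rho over all 6 was 0.886 to 1. Since the 5 genes were picked for their r over these same libraries, high values were partly fixed in advance and are no test of likeness. Chrna1 had an r of 0.9499, and Nr1d1 one of -0.708. In the library with 840.72 FPKM of Cdkn1a, the 8 macrophage markers summed to 84.16 FPKM and the 5 adipocyte markers to 36.6 FPKM, the highest of the KO libraries at ZT10, where the others had 44.91 and 49.93 FPKM and 19.49 and 28.99 FPKM. Among the KO libraries at ZT22, replicate 3, with the most Cdkn1a (508.97 FPKM), also had the highest macrophage sum, at 80.35 FPKM where the others had 41.72 and 44.57 FPKM. The part of these markers in the levels of both libraries was not tested.

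**Figure D4:**
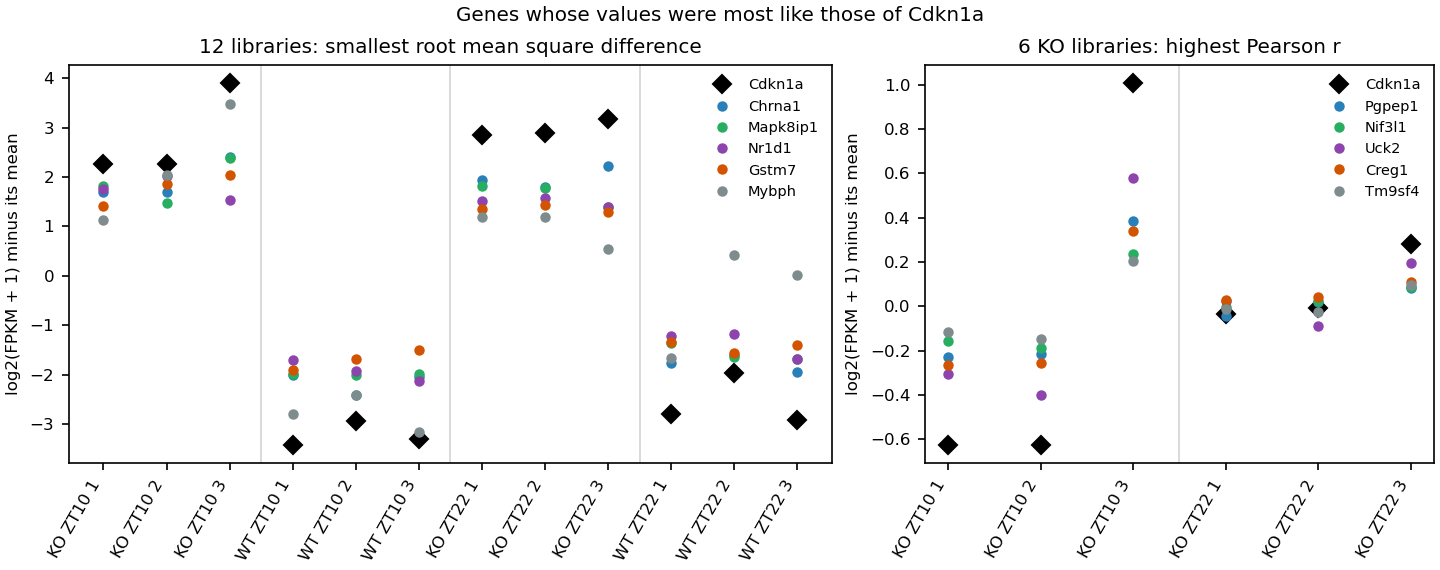
Values of log2(FPKM + 1) minus their mean for Cdkn1a (diamonds) and the 5 genes with the smallest root mean square difference over 12 libraries (left) or with the highest Pearson r over the 6 KO libraries (right), 1 point a library. On the left all 6 genes were higher in every KO library than in any WT library of the same time; on the right all 6 peaked in replicate 3 of KO at ZT10.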

How the data were processed

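RNA was measured in 12 tibialis anterior libraries, grouped by their titles. The authors deposited 1 table with FPKM values per library; its header names no unit, which was read from the values. The authors also deposited log2 fold changes, by comparison with the library columns the second-named group over the first, and p-values and q-values, which were not used because no source names the model behind them. Between genotypes at ZT22, the deposited q-values of Mdm2, Ccng1, Gadd45a and Cdkn1b were under 0.05, unlike the limma results given here. In that comparison the q-value of Cdkn2c was below its own p-value. HISAT2, HTSeq, DESeq2 1.8.2, GRCm38 and mm10 are named, with no role or order, in the submitters' processing notes. The sources name neither annotation nor strand setting.

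Of 14583 entries, 82 were empty and 230 exact repeats, and for Plin2, with 2 differing entries, 1 was kept, which left 14270 genes; 14081 matched GENCODE M21 by symbol and took positions from it. A gene needed an average of 1 FPKM over all libraries (9953 did). Tests ran on log2(FPKM + 1), a scale that understates changes of weakly expressed genes, with limma 3.58.1 in R 4.3.3: 1 mean per group over 12 libraries, a trended empirical Bayes step and Benjamini-Hochberg adjustment within each comparison, with calls at an adjusted p under 0.05. Intervals are 95% intervals of that fit. The test was tried on simulated data. Depth was estimated from the steps of low values at 11.24 to 14.2 in units of 1e6 fragments, weakly determined, so no floors were computed. No 2 libraries held identical values; within groups r across genes was 0.986 to 0.995. All 8 genes, and all tests and lists, were chosen with earlier results of these data known. Named genes are those 8, up to 4 called genes of each list by adjusted p, a few fixed genes (Trp53, Pcna, Rb1, Gadd45b, Gadd45g and Nr1d1) and the 5 most like Cdkn1a by each measure, without predicted genes. Alternatives were a pseudocount of 0.1, no filter, robust empirical Bayes, a replicate block, a fit of only the groups compared, median-of-ratios scaling and each library left out once. Tables used pandas 2.3.3 and numpy 2.4.6 in Python 3.11.15, and plots matplotlib 3.10.9.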

Additional observations from a re-analysis of the deposited data

Results flagged for a closer look

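Arntl was singled out because its difference between KO and WT differed between the times by a test of that change: ZT22 minus ZT10 was -1.64 ± 0.15 on the log2(FPKM + 1) scale (SE; limma adjusted p = 0.0012), with KO above WT in 3 of 3 libraries at both times.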

How the results depend on the processing

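Between genotypes, the calls of Cdkn1c at both times and of Cdkn2d at ZT22 held under every alternative tried. The directions of Cdkn1a, Cdkn1b, Cdkn2d, Mdm2, Ccng1 and Gadd45a between genotypes also held under every alternative. Over all genes, the ZT10 call count of 1425 was 748 with only the groups compared, and leaving out a library gave 847 to 1562 at ZT10, 1035 to 1677 at ZT22 (main 1826), 1290 to 2236 for time in WT (main 2404) and 2 to 77 for the change of the genotype difference (main 4); every such fit had fewer libraries. Whether replicate numbers pair the samples was not settled. In 18 same-numbered pairs, r was weak but mostly positive, from -0.134 to 0.21 with 2 over 0.1. Differently numbered pairs had r from -0.2 to 0.135. With the replicate block, 1411, 1741, 4195, 2385 and 5 genes were called in the 5 comparisons, and Trp53 passed at ZT10 (adjusted p 0.0282). Differences past the threshold in neither fit changed sign in 39 of 1329 comparisons with an alternative, and the cause was not tested. Under median-of-ratios scaling these were ZT22 minus ZT10 of Cdkn1b in WT (-0.10), Cdkn1c in KO (-0.035), Mdm2 in WT (-0.000793) and Trp53 in KO (-0.0058), and KO minus WT of Pcna at ZT22 (0.048). With a library left out, ZT22 minus ZT10 ranged over -0.11 to 0.71 for Cdkn1a in KO, -0.051 to 0.19 for Cdkn1b in WT, -0.29 to 0.14 for Cdkn1c in WT, -0.33 to 0.14 for Cdkn2c in KO and -0.18 to 0.14 for Gadd45a in WT. The change of the genotype difference ranged over -0.77 to 0.045 for Cdkn1a, -0.022 to 0.41 for Cdkn1c and -0.039 to 0.095 for Ccng1. KO minus WT at ZT22 ranged over -0.22 to 0.21 for Cdkn2c, -0.091 to 0.23 for Mcm7, -0.011 to 0.53 for Aurka, -0.028 to 0.12 for Rora, -0.069 to 0.036 for Pcna, -0.067 to 0.52 for Gadd45g and -0.11 to 0.015 for Tm9sf4. KO minus WT at ZT10 ranged over -0.041 to 0.14 for Rbl2, -0.048 to 0.18 for Pcna, -0.21 to 0.079 for Rb1 and -0.032 to 0.18 for Nif3l1. Counted once per gene, comparison and setting, the 8 genes had 9 calls lost and 5 gained with a library left out and 6 lost and 4 gained under other settings, all with the direction kept. For the other named genes, 43 were lost and 4 gained with a library left out, and 19 lost and 4 gained under other settings. The files give no counts, so no counting error stands beside low values such as those of Cdkn2c and Mki67, and the depth behind a value of 0 is unknown.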
